A study of Mus musculus with 12 samples.

Results

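Untreated differentiated neurospheres of APPswe/PS1dE9 mouse embryos (APP_WT) were compared with WT neurospheres on 4 of the 12 2-color arrays of the series, the arrays whose titles name APP_WT and WT. Each of these 4 arrays, called replicates 1 to 4, held RNA of 1 APP_WT culture and 1 WT culture, and the methods describe them as independent biological replicates. The APP_WT sample carried Cy3 on replicates 1 and 2 and Cy5 on replicates 3 and 4, so that the dye effect could be separated from the genotype effect. The other 8 arrays, which compare drug-treated APPswe/PS1dE9 cultures with APP_WT, entered here only through the estimate of the spread. Both groups were of strain C57BL/6. They came from the telencephalon of embryos at day 13, were grown in suspension with EGF and FGF2 for 5 days according to the labels, and were then left to attach and differentiate without these factors and without any drug until day 7, when 100 ng of total RNA was amplified and labeled. The APP_WT embryos belonged to the B6.Cg line that carries the transgenes APPswe, a chimeric mouse and human amyloid precursor protein, and PSEN1dE9, a mutant human presenilin. WT embryos carry neither. The paper describes both transgenes as directed to neurons of the central nervous system, whereas the cultures are mixtures of neurons, glia and progenitors. In such bulk RNA, fewer cells of a type and less RNA per cell cannot be told apart.

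Embryonic telencephalon is patterned along its dorsoventral axis. Dorsal progenitors express Pax6 and Emx genes and give rise to glutamatergic neurons, whereas ventral progenitors express Gsx2 and the Dlx homeobox genes and give rise to GABAergic neurons. Notch signaling through effectors such as Hes5 keeps progenitors undifferentiated, and late progenitors switch from neurons to astrocytes, oligodendrocytes and the multiciliated ependymal cells that line the ventricles. Cholesterol in the brain is made locally, and the transcription factor SREBP2 drives the genes of the whole synthesis pathway when sterol is scarce. When sterol is abundant, liver X receptors (LXR) drive the genes that export it.

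All values below are log2 ratios of APP_WT over WT, or log2 intensities where a level is named. A gene was represented by its brightest expressed probe, and the test is that of limma with Benjamini-Hochberg adjustment over 29361 expressed probes and a threshold of 0.05. A gene that passed is described as higher or lower. A probe was kept as expressed if some comparison had it well above background in 1 condition on 3 or 4 of its arrays, and 14330 named genes were represented among them. On the 4 arrays, between 48.3% and 58.7% of all probes were well above background in APP_WT and between 46.3% and 56.9% in WT. No expressed probe was saturated. The ratios of any pair of these arrays correlated across expressed probes with r between 0.24 and 0.61, and the number of arrays limits the precision.

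The labels were first checked against genes of the transgenes. App, the gene of the amyloid precursor protein, gave log2 ratios of 0.23, 0.27, 0.00039 and -0.03 on replicates 1 to 4. Its mean of 0.12 (SE 0.04) did not pass the limma test (adjusted p = 0.092). Which of the mouse and transgene messages the probe reads is not known. Prnp, the prion protein gene whose promoter drives both transgenes in this line, gave 0.59, 0.59, 1.57 and 0.25. All 4 values lay above 0 and the mean of 0.75 passed (adjusted p = 5.81e-03), with replicate 3 far above the others. Whether this probe reads the vector's message was not tested. Among 13 expressed genes of amyloid precursor processing, Bace2 (0.64, with 0.19 and no call at its other expressed probe), Psen2 (0.32) and Aplp2 (0.23) were also higher (with Prnp 30.8%, against 16.9% of all genes) and Aph1b, a gamma-secretase subunit, was lower (-0.20), although its other expressed probe gave 0.15. Bace1, the beta-secretase, had -0.01 and Adam10, an alpha-secretase, -0.11, and neither passed. Of 10 kinin system genes, 4 were expressed and none passed the limma test in either direction. At an unadjusted p under 0.05, 2 were higher and none lower, 1 was higher after adjustment without replicate 1 or without replicate 2, and SAM with rank products, the test of the methods, called none. The log2 ratios were 0.24 for Mme, 0.14 for Ace, 0.11 for Ece1 and 0.05 for Cpm. The kinin receptor genes Bdkrb1 and Bdkrb2 were not expressed by the filter used.

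Sex-linked genes differed between the cultures. The Y-linked genes Eif2s3y and Uty were well above background only in the APP_WT sample of replicate 1 and the WT sample of replicate 3. Xist, which is transcribed from the inactive X chromosome, was not above background in these same samples and gave log2 ratios of -2.85, -0.41, 3.40 and -0.22. By these 3 genes APP_WT and WT differed on replicates 1 and 3, in opposite senses, and not on replicates 2 and 4, which are called sex-matched below on that basis. The Y-linked gene Ddx3y showed the same pattern on replicates 1, 3 and 4 but was above background in both samples of replicate 2, with log2 processed signals of 9.51 in APP_WT and 6.69 in WT on a spot that the scanner software marked as non-uniform. The match of replicate 2 thus does not hold for every Y-linked probe. The APP_WT sample of replicate 1 of the other comparisons also carried Y-linked signal, and deviations of same-numbered arrays from their means correlated between this comparison and the others with r between -0.51 and -0.21, where APP_WT is the numerator here and the denominator there. Same-numbered arrays therefore do not behave as independent, and the 12-array fit treats them as such. With the replicate number as a block, the following of the genes named here as higher or lower did not pass, with limma adjusted p from 0.053 for Jag1 to 0.10 for Bcl11b: Pax6, Aph1b, Elovl6, Bcl11b, Dpysl3, Plxnb1, Gria2, Scn2a, Cacna1a, Jag1, Nr2e1, Nes, Gal3st1, Olig2, Adamts4, Ftl1, Taldo1, Dnajc3, Ckap2, Nuf2, Tfrc, Dcn and Rnf43. This block gives same-numbered arrays a shift of the same sign, whereas the correlations above are negative. With a block signed by the side that holds APP_WT, chosen after seeing the data, all 1150 lower and 2426 higher genes of the main fit still passed. The 4 arrays also lay on 1 slide scanned together and the other 8 on another, so that slide and comparison cannot be told apart.

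Among expressed probes, 2054 were lower (7.00%) and 3392 were higher (11.6%) in APP_WT. Among the 14330 named genes, 1150 were lower (8.03%) and 2426 were higher (16.9%). The median of the lower genes was -0.25, 44 of the 1150 exceeded 0.5 in size and none exceeded 1 after loess, whereas with processed signals the same 1150 genes had a median of -0.35, with 287 over 0.5 and 20 over 1. After loess the higher genes had a median of 0.37, with 788 above 0.5, 187 above 1 and 32 above 2. The lower genes had a median log2 intensity of 10.1 in WT, against 8.81 for the higher genes and 9.49 for those that did not pass. In all, 922 of the lower genes (80.2%) and 2187 of the higher genes (90.2%) had the same sign on all 4 arrays. None of the lower genes belonged to a list of immune genes, against 93 of the higher genes, and 1028 of the lower genes belonged to none of the 46 lists.

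The count of lower probes depended on single arrays and on the spread that was used. It was 1744 without replicate 1, 1081 without replicate 2, 1291 without replicate 3 and 1278 without replicate 4. A fit to the 4 arrays alone with a dye term called 495 lower probes, a block signed by the side that holds APP_WT called 3493, and the sex-matched replicates 2 and 4 alone called 1266. Of the 1150 lower genes, 784, 544, 627 and 620 were also lower without replicates 1, 2, 3 and 4.

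Scaling moved the balance of the calls. The processed signals of the scanner software, used here without a loess step, called 2449 genes lower (17.1%) and 1982 higher (13.8%). Centering each array on its median called 2216 lower (15.5%) and 1484 higher (10.4%). Whether the software had made its own intensity-dependent correction was not checked. By decile of mean intensity, the median log2 ratio stayed between -0.01 and 0.04 after loess. With processed signals it was -0.15 in deciles 3 and 4 and 0.01 in the brightest, and with median centering it fell from 0.02 in the dimmest decile to -0.16 in the brightest. Of the 1150 genes lower after loess, 1118 were also lower with processed signals, 1125 with median centering and 1094 with both, and none was called higher. Both of these scalings moved the median of all genes down, to -0.05 and -0.08. With processed signals centered on the expressed probes, where the median of all genes was 0.03, 796 of the 1150 were also lower. Of the 2426 higher genes, 1320 were higher under all 3 scalings.

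**Figure D1:**
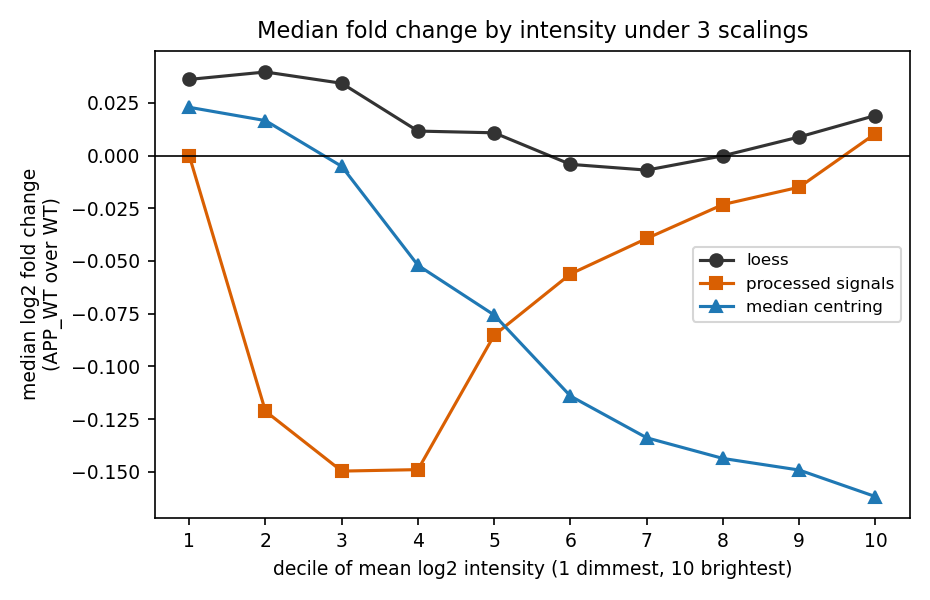
Median log2 ratio of APP_WT over WT (y axis) in each decile of mean log2 intensity over 14330 named genes (x axis, 1 dimmest, 10 brightest), under loess, the processed signals and median centering. The loess medians stay between -0.01 and 0.04, the processed signals dip to -0.15 in deciles 3 and 4, and median centering falls to -0.16 in decile 10.

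Among genes well above background in both conditions on all 4 arrays, the 15 with the largest decrease included the interneuron genes Prokr2 and Sp8, neurofilaments, Notch and Wnt components and a cholesterol synthesis enzyme. Prokr2, a prokineticin receptor of olfactory interneuron precursors, gave log2 ratios of -0.95, -0.75, -0.49 and -1.04 (mean -0.81, SE 0.09, n = 4, limma adjusted p = 1.83e-04), which is 1.75-fold lower in APP_WT. Sp8, a zinc finger transcription factor of the same lineage, gave -0.88, -0.63, -0.56 and -1.14 (mean -0.80), and its other expressed probe also passed with -0.24. Both genes were furthest from 0 on replicate 4. The neurofilament genes varied least over the arrays among these 15. Nefm gave -0.76, -0.79, -0.93 and -0.71 (mean -0.79, SE 0.06, limma adjusted p = 4.55e-06), and Nefl gave -0.75, -0.75, -0.69 and -0.71 (mean -0.73, limma adjusted p = 7.80e-06).

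Col2a1, a fibrillar collagen, had a mean of -0.72 with values from -0.92 to -0.52. Sfrp2, a secreted Wnt antagonist, had a mean of -0.68 with values from -0.93 to -0.48, and Hes5, the Notch effector, a mean of -0.63 with values from -0.87 to -0.51. No array of these 3 genes lay above -0.48. Gpc2, a neuronal glypican, fell by 0.60 on the log2 scale, Stard4, a sterol transport protein, by 0.59 and the transcriptional elongation gene Mllt3 by 0.59. Replicate 3 was close to 0 for Zfp618 (-0.12, mean -0.60) and replicate 1 was the least changed for Cntnap2, a neuronal adhesion gene (-0.24, mean -0.60). The other expressed probe of Cntnap2 gave 0.06. Gm11627 (-0.75) and 9130024F11Rik (-0.61) completed the 15 together with Hmgcs1.

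**Figure D2:**
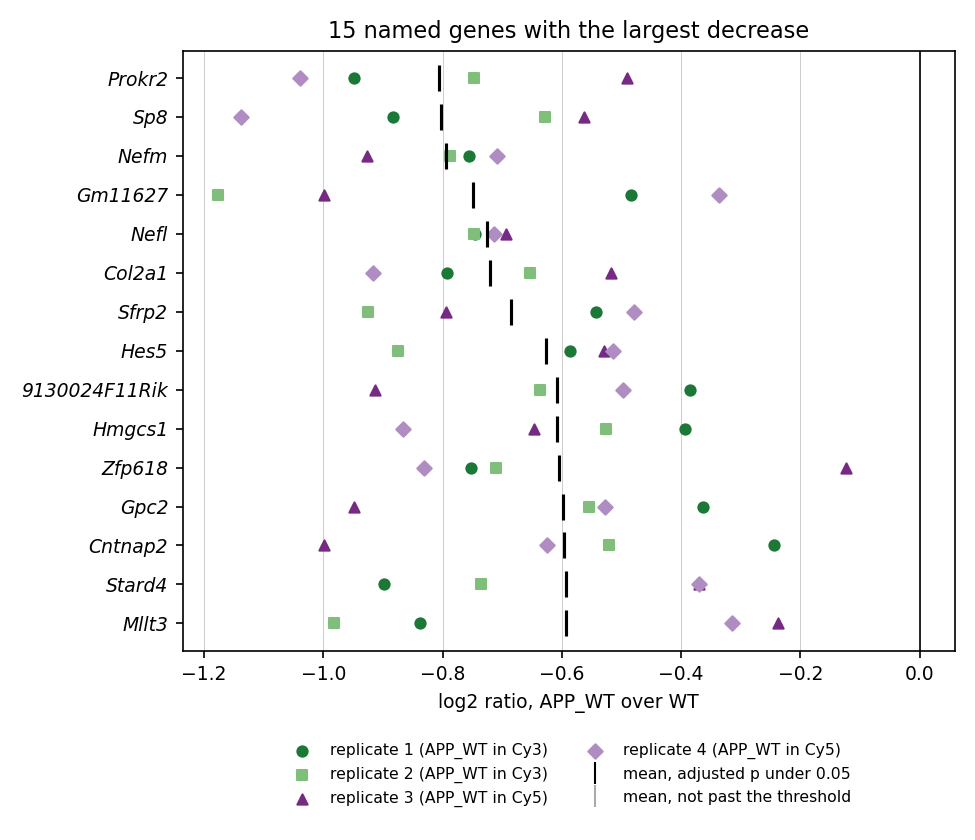
Log2 ratio of APP_WT over WT (x axis) on each of 4 arrays for the 15 named genes with the largest decrease among those above background in both conditions on every array (y axis). Symbols mark replicates 1 to 4, with their dye, and the vertical bar marks the fitted mean. Every value lies below 0, from -1.18 for Gm11627 to -0.12 for Zfp618.

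Genes of cholesterol synthesis fell together. Of 24 expressed members, 18 were lower and none higher, which is 75.0% lower by the limma test against the 8.03% of all named genes. At an unadjusted p under 0.05, 21 were lower and none higher. The median of the list was -0.36, against 0.01 over all genes, and its median on the single arrays was -0.27, -0.26, -0.36 and -0.48. Hmgcs1, a synthase at the start of the pathway, gave -0.39, -0.53, -0.65 and -0.87 (mean -0.61, SE 0.07, limma adjusted p = 2.00e-04), 1.52-fold lower. Downstream in the pathway, the isopentenyl isomerase Idi1 gave -0.44, -0.60, -0.62 and -0.68 (mean -0.59), and the lanosterol demethylase Cyp51 gave -0.62, -0.55, -0.62 and -0.56 (mean -0.59, limma adjusted p = 1.93e-05). These 3 genes were below 0 on every array. Tm7sf2 (-0.57), Lss (-0.48), Msmo1 (-0.47) and Sc5d (-0.44), which act between squalene and cholesterol, were also lower. Sqle, the squalene epoxidase, passed with a mean of -0.31, although replicates 1 and 2 had -0.06 and 0.06. The 6 members that did not pass included Insig1 (-0.21), Hsd17b7 (-0.15), Dhcr7 (-0.15), Ebp (-0.12) and Srebf2 (0.09), which encodes SREBP2. Srebf2 had 0.67 on replicate 2 and values from -0.15 to -0.05 on the others.

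The number of lower members in this list was 19 with processed signals, 21 with median centering and 15 in the fit to the 4 arrays alone. It was 15 to 18 when 1 array was left out, where 1 member was higher without replicate 1, and 15 with 1 higher on the sex-matched arrays alone. The lowest number under any setting, 11, came from the 4 arrays alone without a dye term.

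**Figure D3:**
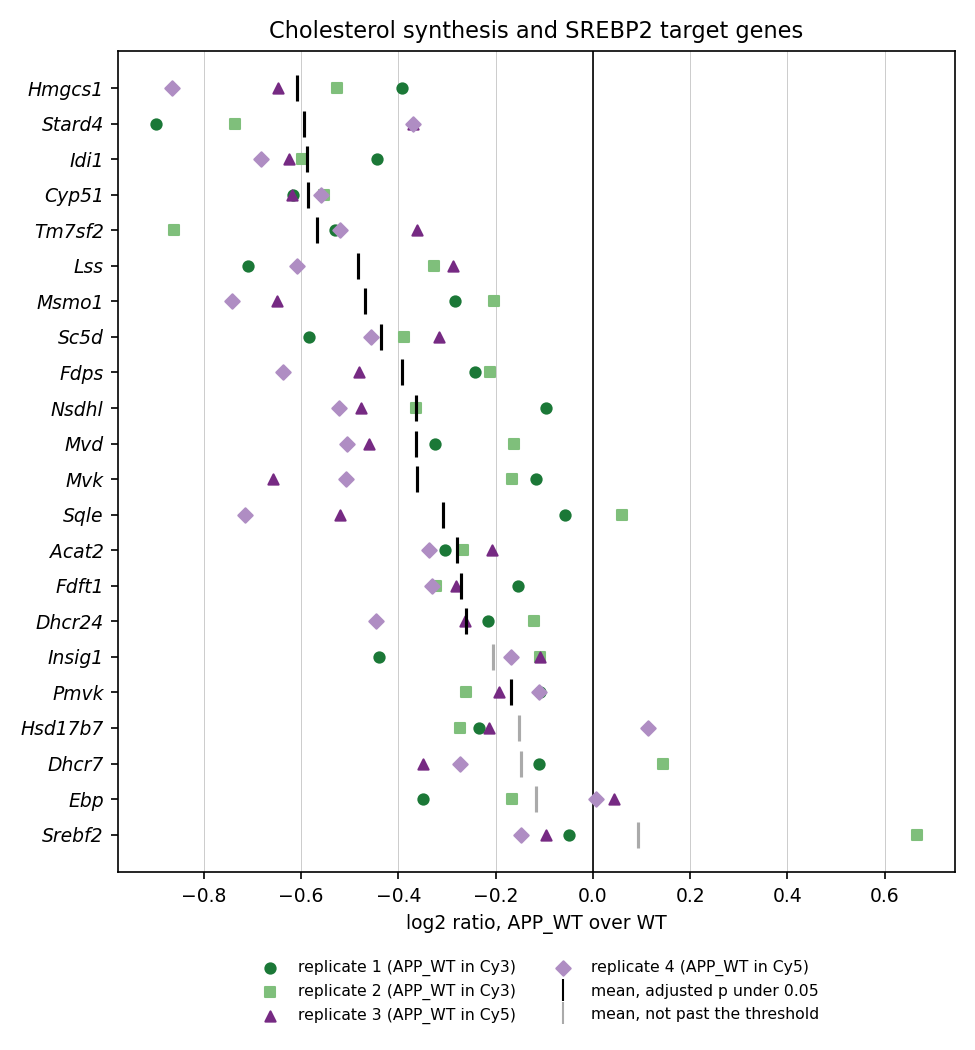
Log2 ratio of APP_WT over WT (x axis) on each array for 22 of the 24 genes of cholesterol synthesis and SREBP2 targets (y axis). Symbols mark replicates 1 to 4, and the bar marks the fitted mean, black where the adjusted p was under 0.05 and gray where it was not. The bars of 21 genes lie below 0 and that of Srebf2 lies at 0.09.

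Genes of this pathway share promoter elements, and the promoters of 3 synthesis enzymes with large decreases are shown for that reason. RefSeq promoter windows, from 250 bases before to 50 after the start (GRCm38.p6), could be matched to 17 of the 24 genes. Motifs were searched on both strands. CCAAT, the NF-Y element, was present in 15 of the 17 windows (88.2%, against 37.9% of all 27025 windows and 38.5% of the windows of expressed genes). GGGCGG, the GC box, was present in 16 (94.1%, against 35.9% and 61.9%). TCACNCCAC, a form of the sterol regulatory element, was present in 1 (5.88%, against 1.22% and 1.04%). The one window with TCACNCCAC was that of Hmgcs1, 137 bases upstream of the start. The windows of Hmgcs1 (chr13:119690101-119690400 on the forward strand), Idi1 (chr13:8885356-8885655 on the forward strand) and Cyp51 (chr5:4104648-4104947 on the reverse strand) read as follows, 5′ to 3′ along each gene, with matches to the 3 motifs on either strand in capitals.
Hmgcs1: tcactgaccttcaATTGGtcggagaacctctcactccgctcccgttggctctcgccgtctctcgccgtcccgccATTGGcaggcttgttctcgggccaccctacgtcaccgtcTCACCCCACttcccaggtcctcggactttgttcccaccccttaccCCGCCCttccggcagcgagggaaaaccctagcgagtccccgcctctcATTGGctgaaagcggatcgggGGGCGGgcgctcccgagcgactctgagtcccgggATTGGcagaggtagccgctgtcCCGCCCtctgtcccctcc
Idi1: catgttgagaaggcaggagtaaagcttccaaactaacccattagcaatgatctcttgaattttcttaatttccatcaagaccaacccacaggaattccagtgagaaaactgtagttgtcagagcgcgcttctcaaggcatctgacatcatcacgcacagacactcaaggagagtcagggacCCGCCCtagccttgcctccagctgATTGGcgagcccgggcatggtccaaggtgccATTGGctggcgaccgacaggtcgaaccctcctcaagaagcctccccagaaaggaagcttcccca
Cyp51: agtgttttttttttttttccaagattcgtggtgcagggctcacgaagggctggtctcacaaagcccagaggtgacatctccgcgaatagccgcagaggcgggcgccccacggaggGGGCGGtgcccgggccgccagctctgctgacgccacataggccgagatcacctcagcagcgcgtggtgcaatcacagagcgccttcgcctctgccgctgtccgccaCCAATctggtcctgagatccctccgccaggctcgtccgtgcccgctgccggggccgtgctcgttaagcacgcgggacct
A match describes these letters only and is not evidence of binding.

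The sterol exporter genes Abcg1 and Abca1 were higher. They belong to a list of fatty acid synthesis genes and LXR targets, of which 6 of 21 were higher (28.6%, against 16.9% of all genes) and 2 lower (9.52%, against 8.03%). The median of this list was 0.10 and turned to -0.06 under median centering, with 6 higher and 4 lower. Abcg1, a sterol exporter, gave 1.57, 1.85, 1.53 and 1.40 (mean 1.59, limma adjusted p = 3.00e-07), 3.01-fold higher, and Abca1, which loads cholesterol onto apolipoproteins, gave 0.68, 0.96, 1.23 and 1.33 (mean 1.05). Nr1h3, which encodes LXR-alpha, had a mean of 0.56 and the acyl-CoA synthetase gene Acsl3 of 0.47. The lower members were Acss2 (-0.35), an acetyl-CoA synthetase, and Elovl6 (-0.21), a fatty acid elongase. The number of higher members was also 6 in each fit with 1 array left out. Macrophages also express Abca1, Abcg1 and Nr1h3, and markers of that cell type moved as given below. Their part in these values was not tested.

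Transcription factors of the ventral telencephalon were the next group to fall. Of 28 expressed members, 15 were lower (53.6%, against 8.03% of all genes) and 1 was higher (3.57%, against 16.9%), with a median of -0.26. Besides Sp8, the homeobox gene Dlx1 gave -0.60, -0.68, -0.37 and -0.71 (mean -0.59, SE 0.06, limma adjusted p = 1.05e-04), and Gsx2, which specifies ventral progenitors, gave -0.70, -0.55, -0.56 and -0.38 (mean -0.55). Etv1 had a mean of -0.49, Tshz1 of -0.46, Dlx5 of -0.44, Dlx6os1 of -0.41, Dlx2 of -0.40 and Meis2 of -0.39, and Dlx6 (-0.27) and Sp9 (-0.26) were lower as well. The 4 Dlx genes and Dlx6os1 thus all fell. Nkx2-1 (0.19), Lhx6 (0.13) and Lhx8 (0.20), factors of the medial ganglionic eminence, did not pass. Etv1 did not pass at its other expressed probe (-0.18). Foxp2, a factor of striatal and deep-layer neurons, was higher (0.31), a call that was lost with processed signals, without replicate 2 or replicate 4 and at its other expressed probe (0.07). The list median was -0.33, -0.23, -0.01 and -0.25 on replicates 1 to 4, so that replicate 3 as a whole showed little of the shift. The count of lower members was 10 to 14 with 1 array left out, 9 in the fit to the 4 arrays alone and 14 on the sex-matched arrays, where 5 were higher.

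GABAergic interneuron genes split. Of 23 expressed members, 4 were lower (17.4%, against 8.03% of all genes) and 8 higher (34.8%, against 16.9%), with 7 lower and 7 higher under processed signals and 4 of each in the fit to the 4 arrays alone. Prokr2, Synpr (-0.50), a synaptic vesicle protein of interneurons, Robo2 (-0.46) and the calcium-binding protein gene Calb2 (-0.31) were lower. Synpr gave -0.63, -0.70, -0.22 and -0.47, and Calb2 gave -0.34, -0.24, -0.32 and -0.34. With any 1 array left out 4 members were lower, and 5 were higher without replicate 3. Npy, the neuropeptide Y precursor, was higher with 1.18, 1.04, 1.45 and 1.51 (mean 1.29, limma adjusted p = 1.81e-07), 2.45-fold, and Sst, the somatostatin precursor, with 0.52, 0.66, 1.14 and 0.92 (mean 0.81). Penk (0.54) and Pvalb (0.47) were higher too. The GABA-synthesizing enzyme genes Gad1 (0.33) and Gad2 (0.30) passed, but on replicate 1 they lay at -0.06 and -0.20 and on replicate 3 at 0.85 and 0.79. The vesicular transporter gene Slc32a1 had 0.11 and did not pass.

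Dorsal glutamatergic genes passed in both directions. Of 30 expressed members, 7 were lower (23.3%, against 8.03% of all genes) and 6 higher (20.0%, against 16.9%), with 9 lower and 5 higher under processed signals and 10 and 5 under median centering. Neurod2, a factor of maturing glutamatergic neurons, gave -0.32, -0.52, -0.49 and -0.59 (mean -0.48) and Insm1, a factor of neurogenic progenitors, -0.45, -0.58, -0.38 and -0.46 (mean -0.47). Neurod6 (-0.40), Rorb (-0.36), Bcl11b (-0.24) and Pax6 (-0.16) were lower as well, although Bcl11b had 0.12 on replicate 3 and its other expressed probe gave 0.01. Eomes, which marks intermediate progenitors, was higher with 0.29, 0.51, 1.02 and 0.48 (mean 0.58), as were Tbr1 (0.53) and Fezf2 (0.53), factors of deep layers, and the vesicular glutamate transporter gene Slc17a7 (0.58). With 1 array left out, 5 or 6 members were higher, and 8 were lower without replicate 3, 4 without replicate 2 and 5 without replicate 1 or replicate 4.

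Pan-neuronal cytoskeletal and RNA-binding genes fell more than they rose. Of 27 expressed members, 11 were lower (40.7%, against 8.03% of all genes) and 2 higher (7.41%, against 16.9%). The list median was -0.18, with array medians of -0.23, -0.28, -0.07 and -0.19, and it was -0.09 without replicate 4. Under median centering 17 were lower and 1 higher, with a list median of -0.33. Besides Nefm and Nefl, the microtubule gene Dcx, a marker of young neurons, gave -0.26, -0.73, -0.40 and -0.78 (mean -0.54, limma adjusted p = 2.31e-03), Elavl3 had a mean of -0.34, Map2 of -0.31 and Ina of -0.31. Crmp1 (-0.26), Nsg1 (-0.21), Elavl2 (-0.20), Elavl4 (-0.20) and Dpysl3 (-0.20) were lower by less. Tubb3 (-0.13), Mapt (-0.18) and Rbfox3 (0.05) did not pass. Thy1, a surface protein of mature neurons, was higher on every array, with 0.61, 0.50, 0.94 and 0.72 (mean 0.69), and Nefh, the heavy neurofilament of mature axons, had 0.28, although its other expressed probe gave -0.04. Nefl and Nefm fell while Nefh did not, so the neurofilament genes did not move as a set. The count of lower members was 6 without replicate 2, 7 without replicate 4 and 5 in the fit to the 4 arrays alone.

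Of 35 expressed axon guidance genes, 10 were lower (28.6%, against 8.03% of all genes) and 2 higher (5.71%, against 16.9%). The median of the list was -0.01, with 19 of 35 below 0 and array medians of -0.13, -0.08, 0.05 and -0.06, and it was -0.18 with processed signals and -0.09 under median centering. Efnb2, an ephrin ligand, gave -0.60, -0.48, -0.24 and -0.66 (mean -0.49, with -0.06 and no call at its other expressed probe), Epha3, an ephrin receptor, -0.46, -0.62, -0.38 and -0.36 (mean -0.45) and Robo2, a Slit receptor, -0.59, -0.31, -0.30 and -0.64 (mean -0.46). Unc5c (-0.34), Plxna4 (-0.33), Epha7 (-0.28), Epha4 (-0.28), Efnb1 (-0.28), Plxna2 (-0.28) and Robo1 (-0.24) were also lower. The ligands Slit1 (0.02), Slit2 (0.03) and Sema3a (-0.01) did not pass. Sema4d (0.32) and Plxnb1 (0.23), a semaphorin and its receptor, were higher. The count of lower members was 6 without replicate 4 and 4 in the fit to the 4 arrays alone.

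Of 36 expressed synaptic genes, 9 were higher (25.0%, against 16.9% of all genes) and 1 lower (2.78%, against 8.03%). In the fit to the 4 arrays alone 2 were higher, and SAM with rank products called 3 higher and 1 lower. Syp, a vesicle membrane protein, gave 0.20, 0.32, 0.63 and 0.26 (mean 0.35), Syn2 0.39, 0.38, 0.39 and 0.15 (mean 0.33) and the calcium sensor gene Syt1 0.31, 0.49, 0.70 and 0.21 (mean 0.43). Homer1, a postsynaptic scaffold, was lower (-0.31), although 2 of its 4 other expressed probes did not pass. The balance depended on scaling, with 5 higher and 5 lower under processed signals and 2 higher and 5 lower under median centering. All genes shifted the same way, with 13.8% higher and 17.1% lower under processed signals and 10.4% and 15.5% under median centering. Without replicate 3, 5 synaptic genes were higher. Of 34 neurotransmitter receptor genes 8 were higher (23.5%, against 16.9% of all genes), such as Gabrb1 (0.44), Chrm1 (0.43) and Grin1 (0.34). Lower were 6 (17.65%, against 8.03%), such as the glutamate receptor genes Grik3 (-0.33), Gria2 (-0.31, with -0.04 and no call at its other expressed probe) and Grin3a (-0.23), Gabra2 (-0.30) and the cannabinoid receptor gene Cnr1 (-0.24). Processed signals gave 6 higher and 7 lower receptor genes and median centering 4 and 7. By the limma test 2 receptor genes were lower without replicate 2, 3 without replicate 3 and none without replicate 4. Among 24 ion channel genes 16.7% were higher, against 16.9% of all genes, and 12.5% lower, against 8.03%. Their balance turned with scaling, as that of all genes did, to 2 higher and 7 lower with processed signals and 2 and 6 with median centering. After loess 3 were lower, such as Kcnd3 (-0.38) and Cacna1g (-0.36, with -0.06 and no call at its other expressed probe), and 4 higher, such as Kcnc2 (0.44), Scn2a (0.23, with 0.13 and 0.06 and no call at its other probes) and Cacna1a (0.19), with 1 higher call without replicate 2 or without replicate 3. Of 24 neuropeptide precursor genes, 12 were higher (50%, against 16.9% of all genes) and 1 lower (4.17%, against 8.03%). In this list 9 were higher with processed signals and 6 with median centering, where 13.8% and 10.4% of all genes were higher. The list median was 0.22, and Grp, the gastrin-releasing peptide precursor, was at 0.71. Scg2, a secretogranin of dense-core vesicles, was lower with -0.23, -0.34, -0.77 and -0.59 (mean -0.48).

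Notch and stem cell genes moved in both directions. Of 32 expressed members, 7 were lower and 7 higher (21.9% each, against 8.03% and 16.9% of all genes), with 9 lower and 4 higher under processed signals and 10 lower and 4 higher under median centering. Nrarp, a Notch target that dampens the pathway, gave -0.81, -0.73, -0.73 and -0.67 (mean -0.73, SE 0.07, limma adjusted p = 3.03e-05, or -2.03 with processed signals) and was above background in APP_WT on 2 of 4 arrays. Hes5 gave -0.59, -0.87, -0.53 and -0.51, and the ligand Dll1 gave -0.27, -0.35, -0.47 and -0.27 (mean -0.34). Tnc (-0.36, with -0.25 and no call at its other expressed probe), Jag1 (-0.20), Nr2e1 (-0.20) and Pax6 were also lower. Hes1 (-0.06), Hey1 (0.06), Notch1 (-0.04) and Sox2 (-0.12) did not pass. The intermediate filament gene Vim gave 0.78, 1.04, 0.91 and 1.15 (mean 0.97, 1.96-fold), Hopx, a radial glia gene, had 0.54, the glutamate transporter gene Slc1a3 had 0.43 and Nes, with 0.05 on replicate 1 and 0.61 to 0.83 on the others, had 0.55. The count of lower members was 3 without replicate 2 and 3 without replicate 3, and the count of higher members was 4 without either of them.

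In the Wnt list, 14.3% were lower, against 8.03% of all genes, and 11.4% higher, against 16.9%. Of its 35 members 5 were lower, among them Sfrp2, Sfrp5 (-0.35) and the ligand gene Wnt7a (-0.30), and 4 were higher, among them Dkk3 (0.82), whereas 3 were lower without replicate 1 or replicate 2, 1 without replicate 3, and 2 higher without replicate 4. In the BMP and TGF-beta list of 30 expressed genes, 8 were higher (26.7%, against 16.9% of all genes) and 3 lower (10.0%, against 8.03%). The balance turned with scaling, as that of all genes did, to 6 higher and 7 lower with processed signals and 5 and 6 with median centering. Id2, a target gene that inhibits proneural factors, gave -0.18, -0.51, -0.85 and -0.59 (mean -0.53). The activin antagonist gene Fst was lower (-0.40) and Inhba (-0.30) too, while Tgfbi (1.42), Tgfb3 (0.93) and Tgfbr2 (0.93) were higher. In the FGF list of 24 expressed genes, 5 were higher (20.8%, against 16.9% of all genes) and 2 lower (8.33%, against 8.03%). Its median was 0.12, with 1 higher and 3 lower under median centering and 3 to 8 higher with 1 array left out. Fgfbp3, a carrier of FGF ligands, was lower with -0.60, -0.73, -0.63 and -0.23 (mean -0.55), and Nrg1 (0.41) and Etv5 (0.34) were among the higher members. Of 27 immediate early genes, 5 were lower (18.5%, against 8.03% of all genes), with 7 under processed signals and 6 under median centering. Lower after loess were such genes as Egr1 (-0.44), Nr4a2 (-0.38), the activity-dependent factor Npas4 (-0.37) and Ier5 (-0.34, with -0.08 and no call at its other expressed probe). In this list 7 were higher (25.9%, against 16.9%), such as Atf3 (0.95), with 4 higher without replicate 3. Of 23 hypoxia-responsive genes, 5 were lower (21.7%, against 8.03% of all genes), with 7 under processed signals and 8 under median centering. Lower after loess were such genes as Ankrd37 (-0.37), Ddit4 (-0.31) and Vegfa (-0.24), and 2 were higher (8.70%, against 16.9%). In this list 2 were lower without replicate 4 and none higher without replicate 3. Of 10 expressed Hedgehog genes, Gli2 (-0.26) was lower (10.0%, against 8.03% of all genes). Gas1 (0.36, with 0.07 and no call at its other expressed probe), Boc (0.30) and Gli3 (0.25) were higher (30.0%, against 16.9%). There was 1 higher call without replicate 2 or replicate 4 and no lower call by the limma test without replicate 2 or replicate 3.

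Multiciliated cell genes had the highest median of the non-immune lists. Of 35 expressed members, 31 were higher (88.6%, against 16.9% of all genes) and none lower by the limma test or at an unadjusted p under 0.05, with a median of 0.79 and array medians of 0.97, 0.61, 0.82 and 0.81. Foxj1, the transcription factor that drives motile cilia, gave 1.08, 1.13, 1.01 and 1.40 (mean 1.15). Ccdc153 gave 1.96, 1.46, 1.93 and 2.00 (mean 1.84, SE 0.11, limma adjusted p = 2.14e-06), 3.58-fold higher. The dynein light chain gene Dynlrb2 gave 1.73, 1.21, 1.52 and 1.90 (mean 1.59), the radial spoke gene Rsph1 gave 1.38, 1.25, 1.66 and 1.92 (mean 1.55) and the axonemal gene Enkur gave 1.52, 1.02, 1.49 and 1.51 (mean 1.39). Replicate 2 was the lowest of the arrays for each of these 4 genes. Rfx3 (-0.00088), Mcidas (0.13), Tekt2 (-0.03) and Hydin (0.22) did not pass. The mean log2 level of the list was 8.66 to 9.04 in the APP_WT samples and 8.02 to 8.18 in the WT samples. The filter could admit members through APP_WT alone, so the lack of overlap is not independent of it. The count of higher members was 29 or 30 with 1 array left out and 29 in the fit to the 4 arrays alone. It was 25 where both conditions had to be above background on every array, a filter that also removed members.

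**Figure D4:**
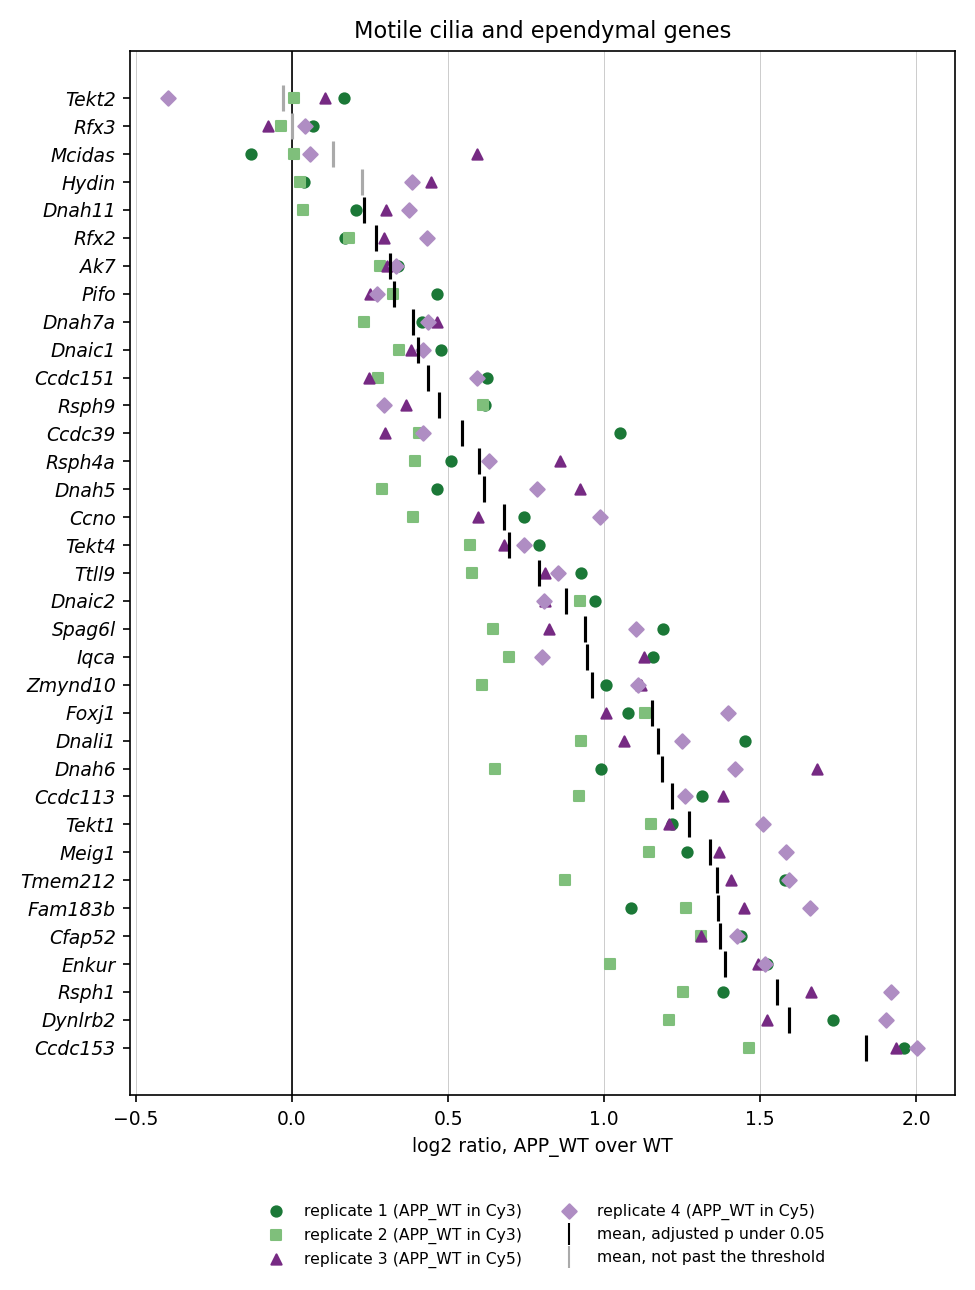
Log2 ratio of APP_WT over WT (x axis) on each array for the 35 expressed motile cilia and ependymal genes (y axis). Symbols mark replicates 1 to 4, and the bar marks the fitted mean, black where the adjusted p was under 0.05 and gray where it was not. The bars run from -0.03 for Tekt2 to 1.84 for Ccdc153, and 31 of them are black.

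RFX factors bind the X box of ciliary promoters, and GTTGCC is an arm of it. This motif was found in 19 of the 32 promoter windows matched to the list (59.4%, against 12.7% of all windows and 13.0% of those of expressed genes). The windows of the members with the largest increases, Ccdc153 (chr9:44240427-44240726 on the forward strand) and Dynlrb2 (chr8:116504765-116505064 on the forward strand), are given with the match in capitals, which starts 152 and 51 bases upstream.
Ccdc153: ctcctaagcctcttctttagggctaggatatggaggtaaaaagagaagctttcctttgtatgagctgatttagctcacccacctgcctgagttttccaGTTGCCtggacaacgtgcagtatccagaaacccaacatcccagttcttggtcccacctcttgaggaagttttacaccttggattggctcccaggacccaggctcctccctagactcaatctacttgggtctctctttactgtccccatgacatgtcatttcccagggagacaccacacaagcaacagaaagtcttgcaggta
Dynlrb2: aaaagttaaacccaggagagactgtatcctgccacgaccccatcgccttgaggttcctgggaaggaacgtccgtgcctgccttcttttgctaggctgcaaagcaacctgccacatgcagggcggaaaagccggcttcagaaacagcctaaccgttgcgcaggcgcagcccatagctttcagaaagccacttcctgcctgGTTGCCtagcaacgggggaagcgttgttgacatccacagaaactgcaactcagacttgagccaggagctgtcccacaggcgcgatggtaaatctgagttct
Both windows come from RefSeq (GRCm38.p6), and the match is a description of sequence alone.

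Choroid plexus markers, another product of the ventricular lining, were higher for 6 of 13 expressed members (46.2%, against 16.9% of all genes). None was lower by the limma test (1 at an unadjusted p under 0.05). Ttr, the transthyretin gene, gave 1.31, 0.69, 1.41 and 0.84 (mean 1.06), Calml4 had 0.90, Clic6 had 0.65 and Folr1 had 0.51, whereas Otx2 (0.06) and Kcnj13 (0.15) did not pass. Astrocyte genes were higher for 16 of 29 (55.2%, against 16.9% of all genes) and lower for 2 (6.90%, against 8.03%). Their median was 0.26, and their mean level was 11.7 to 11.8 in APP_WT against 11.4 to 11.6 in WT. Clu, the clusterin gene, gave 0.76, 0.78, 1.04 and 1.01 (mean 0.90), the membrane protein gene Mlc1 0.48, 0.66, 0.90 and 0.94 (mean 0.75), the water channel gene Aqp4 0.62, 0.91, 0.51 and 0.88 (mean 0.73) and the connexin gene Gjb6 1.18, 0.20, 0.84 and 0.94 (mean 0.79). Gfap, the astrocyte intermediate filament, was higher (0.69), and so was Slc1a2 (0.46), while Aldh1l1 (0.20), Sox9 (0.14) and Glul (-0.11) did not pass. Mfge8 (-0.42) and Grin2c (-0.37) were lower. Under median centering 10 astrocyte genes were higher and 3 lower. Oligodendrocyte lineage genes showed little, with 1 of 28 higher (3.57%, against 16.9% of all genes) and 2 lower (7.14%, against 8.03%). Cspg4 (0.32) was higher, and Gal3st1 (-0.24) and Olig2 (-0.21) were lower. All of these calls were lost in the fit to the 4 arrays alone, and that of Cspg4 was also lost with processed signals.

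Extracellular matrix genes were higher for 24 of 56 (42.9%, against 16.9% of all genes) and lower for 7 (12.5%, against 8.03%), with 22 higher and 11 lower under processed signals and 19 and 8 under median centering. Fmod (0.77), Timp1 (0.76), Hapln1 (0.73) and the laminin gene Lama5 (0.72) were the largest increases, and Lum (-0.62, or -1.74 with processed signals), the basement membrane gene Nid1 (-0.41), Vcan (-0.39) and Adamts4 (-0.20) were among the decreases. Neither Nid1 (-0.23) nor Vcan (-0.25) passed at its other expressed probe. Fewer matrix genes were lower with an array left out, 4 without replicate 1, 3 without replicate 2 and 3 without replicate 3. Lum was above background in APP_WT on 1 of 4 arrays and in WT on 4. Lysosomal genes were higher for 23 of 40 (57.5%, against 16.9% of all genes), with a median of 0.26. None was lower by the limma test (1 at an unadjusted p under 0.05). The cathepsin genes Ctss (2.52), Ctsh (1.73), Ctsz (1.17), Ctsb (0.96) and Ctsd (0.81) led, whereas the proton pump genes Atp6v1h (-0.18), Atp6v1a (0.08) and Atp6v0d1 (0.04) and the sterol transporters Npc1 (0.07) and Npc2 (-0.01) did not pass. Under median centering 12 lysosomal genes were higher. Ctss was above background in WT on 1 of 4 arrays. Of 20 expressed microglia and macrophage genes 17 were higher on the same arrays, and their part in the lysosomal values was not tested.

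Of 19 heat shock genes 4 were higher (21.1%, against 16.9% of all genes, with a list median of -0.0002), all of them small heat shock proteins or their partner. Hspb8 gave 1.49, 1.59, 1.36 and 1.36 (mean 1.45, 2.73-fold), Cryab had 0.88, Hspb1 0.60 and the co-chaperone gene Bag3 0.43. Dnaja1 was lower (-0.19, with -0.18 and no call at its other expressed probe), and no heat shock gene was lower by the limma test without replicate 2, 3 or 4. Of 21 p53 target genes 9 were higher (42.9%, against 16.9% of all genes) and none lower by the limma test (1 at an unadjusted p under 0.05), led by Fas (1.30), Phlda3 (0.89) and the cell cycle inhibitor gene Cdkn1a (0.64). Under median centering 5 p53 target genes were higher and 1 lower. Of 31 NRF2 antioxidant genes 12 were higher (38.7%, against 16.9% of all genes), with 10 under processed signals and 6 under median centering. Higher after loess were such genes as Cbr3 (0.64), Mt2 (0.61) and Nfe2l2 (0.50). Ftl1 (-0.19) and Taldo1 (-0.15) were lower (6.45%, against 8.03%), with neither lower when any 1 array was left out. In the unfolded protein response list of 22 genes Xbp1 (-0.29) was lower (4.55%, against 8.03% of all genes). Dnajc3 (0.27) and Pdia4 (0.19) were higher (9.09%, against 16.9%), and neither was higher with any 1 array left out or under median centering. Glycolysis genes were higher for 7 of 18 after loess (38.9%, against 16.9% of all genes), such as Eno2 (0.38) and Pfkm (0.34). They were higher for 4 without replicate 3 and for 1 under median centering. Hk2, the inducible hexokinase gene, was lower (-0.46).

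Housekeeping and cell cycle groups served as a comparison. None of the 47 oxidative phosphorylation genes (median 0.04) or the 45 ribosomal protein genes (median -0.0032) passed the limma test in either direction, nor did SAM with rank products call any. At an unadjusted p under 0.05, 6 of the former and 1 of the latter were higher and none lower. Of 43 S phase genes only Prim1, a primase subunit, passed (-0.19), and of 46 G2/M genes Ckap2 (0.35) and Nuf2 (0.23) did. With the replicate block neither G2/M gene passed (limma adjusted p = 0.098 for Ckap2 and 0.061 for Nuf2). Processed signals gave 6 lower S phase and 3 lower G2/M genes, where 17.1% of all genes were lower. Median centering gave 5 and 4, where 15.5% of all genes were lower. None was higher by the limma test in either list under these scalings, and Prim1 no longer passed without replicate 1, replicate 3 or replicate 4. The S phase median was -0.06, 0.15, -0.13 and 0.04 on replicates 1 to 4 and the G2/M median -0.13, 0.09, -0.16 and 0.18, so that replicates 1 and 3 lay below 0 and replicates 2 and 4 above. On replicates 2 and 4 alone, 8 of the 43 S phase and 9 of the 46 G2/M genes were higher, where 14.6% of all genes were. Without replicate 1, 6 S phase and 4 G2/M genes were higher, where 2330 of all 14330 named genes were.

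**Figure D5:**
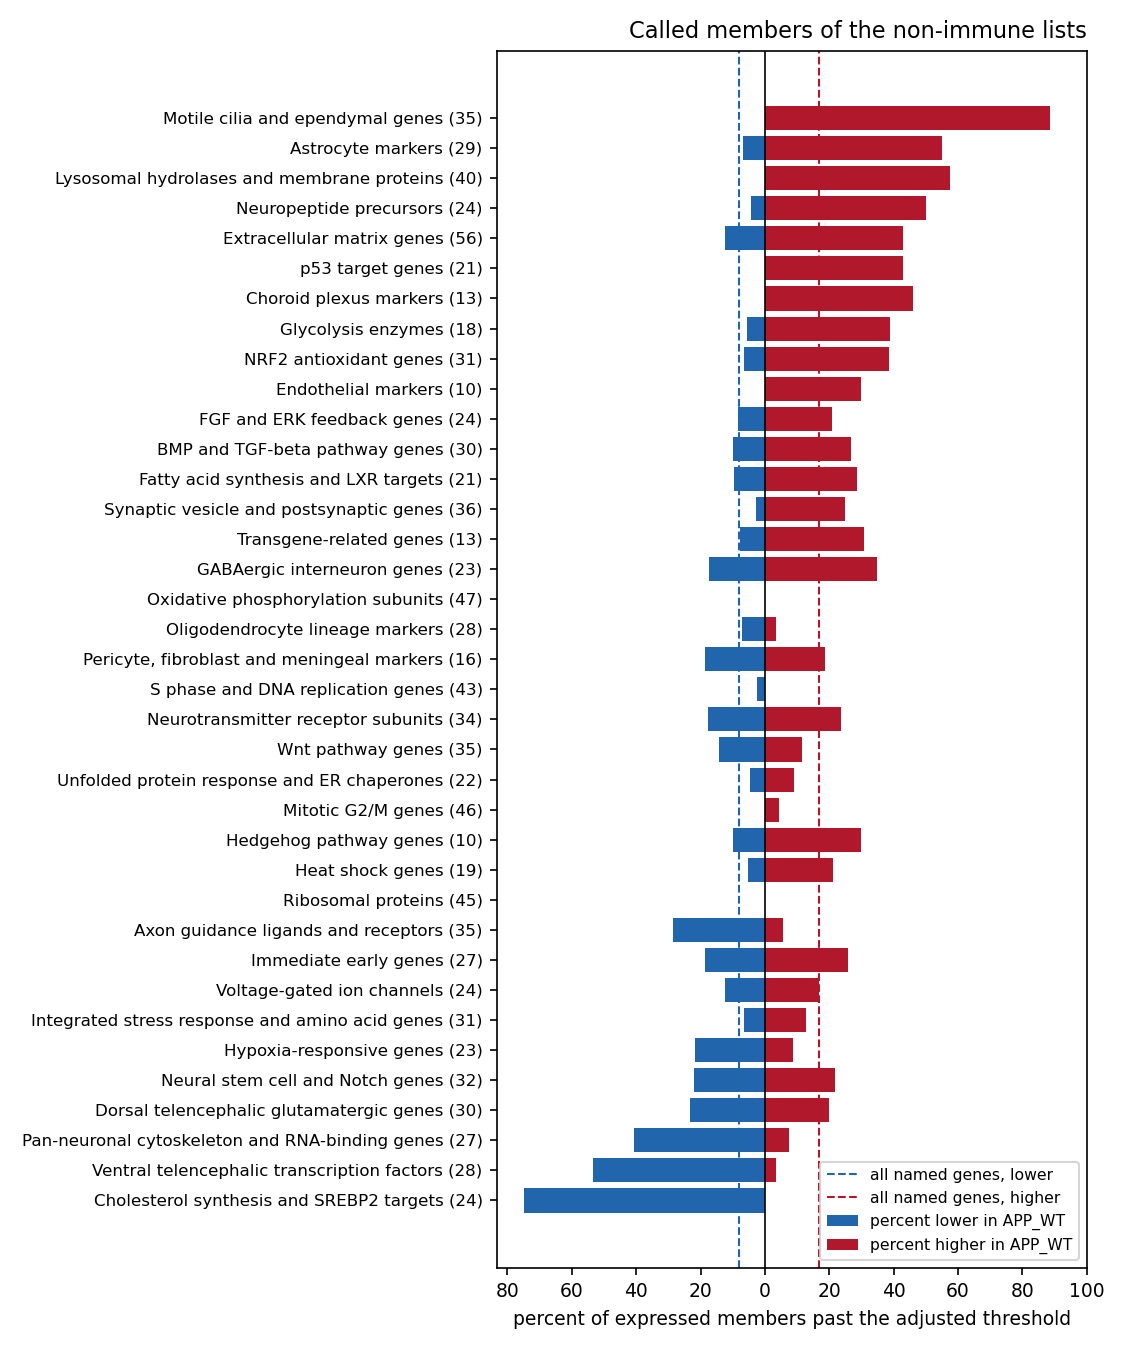
Percent of the expressed members of each non-immune list (y axis, with the number of expressed members) that were lower (bars to the left) or higher (bars to the right) in APP_WT at an adjusted p under 0.05, ordered by the median log2 ratio of the list. Dashed lines mark the share among all named genes, 8.03% lower and 16.9% higher. Cholesterol synthesis has 75.0% lower and motile cilia 88.6% higher.

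Immune genes held the largest increases. Cxcl10, an interferon-induced chemokine gene, gave 4.05, 4.56, 4.47 and 4.91 (mean 4.50, 22.6-fold), and the complement gene C3 gave 3.67, 4.19, 4.24 and 4.57 (mean 4.17). Of 32 interferon-induced genes 31 were higher (96.9%, against 16.9% of all genes). Of 20 expressed microglia and macrophage genes 17 were higher (85.0%), such as Aif1 (2.21). Many of these genes passed the filter through APP_WT, since 6 microglial and 17 interferon-induced genes were higher where both conditions had to be above background on all 4 arrays. That filter also removed members from both lists, so these counts are not out of 20 and 32. With it 2098 of all named genes were higher, against 2426 in the main fit. The mean log2 level of the microglial genes was 8.92 to 9.16 in the APP_WT samples and 7.67 to 7.91 in the WT samples. Members that passed the filter through APP_WT are part of this mean, so the lack of overlap is not independent of the filter. Of 30 listed microglial genes 29 were on the arrays and 20 were expressed, and Spi1, P2ry12 and Gpr34 were not expressed by the filter used. Between conditions, 42 probes were above background in APP_WT on all 4 arrays and in WT on none, the largest being that of the chemokine gene Ccl4 (at least 5.49-fold higher), and no probe showed the reverse. The part of these cells in the decreases of neuronal, Notch and cholesterol genes was not tested.

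Markers of other tissues were few. Of 16 erythroid markers 3 were expressed and Tfrc, the transferrin receptor gene, was lower (-0.19), a call that was lost without replicate 1, 2 or 4 and in the fit to the 4 arrays alone. Of 20 endothelial markers 10 were expressed and 3 were higher (30.0%, against 16.9% of all genes), while Cldn5 and Cdh5 were not expressed. The higher members were Plvap (0.53, with 0.34 and no call at its other expressed probe), Egfl7 (0.30) and Flt1, which was not well above background on any WT sample. Of 24 pericyte, fibroblast and meningeal markers 16 were expressed. Lum, Pdgfrb (-0.45) and Dcn (-0.25) were lower (18.8%, against 8.03% of all genes). Foxc1 (0.61), Cyp1b1 (0.39) and Cspg4 were higher (18.8%, against 16.9%). Dcn lay at 0.11, 0.09, -0.58 and -0.61 on replicates 1 to 4, and only replicates 3 and 4 lay below 0. With 1 array left out, 2 of these markers were lower and 1 to 4 higher, and processed signals gave 5 lower and 2 higher. Of 21 markers of lymphocytes, neutrophils and mast cells 4 were expressed, and none passed the limma test, with none at an unadjusted p under 0.05 and none by SAM with rank products.

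By chromosome, the share of lower genes ran from 4.90% on chromosome 7 to 12.4% on the X chromosome, where 62 of 500 genes were lower and 56 higher. On the sex-matched arrays alone 34 of the X-linked genes were lower (6.80%), against 4.79% of all genes. Of the 1150 lower genes, 332 had another expressed probe, which was lower too for 138 and higher for 1. Of the 2426 higher genes, 545 had another expressed probe, which was higher too for 304.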

How the data were processed

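Each array was a 2-color Agilent whole mouse genome array of 62976 spots, scanned and extracted by the authors with Feature Extraction (11.0.1.1 per the file headers). The deposited scanner files give median signal and background intensity values, processed signals and a log10 ratio of red over green for each spot. The deposited value table gives the authors' log2 ratios, to which no loess step was added here. Its columns matched the scanner ratios in size with an absolute r of 0.999999 or more after rounding, and ran as APP_WT over WT, with medians of -0.0797, -0.155, -0.0373 and -0.0378 and no gene centering.

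Intensities were background corrected (normexp, offset 50), loess normalized within arrays (span 0.3) with 3671 control spots and non-uniform spots at weight 0, averaged per probe to 55681 probes and turned to APP_WT over WT. limma 3.58.1 in R 4.3.3 was fitted to all 12 arrays, where each comparison had its own mean and its own dye term (6 residual and 4.56 prior degrees of freedom). The dye term passed for 1415 probes and its median size was 0.084. Of the expressed probes 124 had a missing value on the 4 arrays and were fitted on the others. Probes were named through RefSeq accessions (GRCm38.p6), and a gene was given by its expressed probe of highest mean intensity. The fit was tested on simulated data.

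Genes were named by rule: the 15 largest decreases and 10 largest increases past the threshold with 1 sign and both conditions above background on all 4 arrays, up to 6 lower and 4 higher members of each list with its defining members, the transgene, kinin and sex-linked lists, and the 5 largest bounds of probes above background in 1 condition. Some list members are counted but not reported here by name. Members given beyond this rule were added after their values were seen. A bound sets the mean of APP_WT against the lowest signal of probes well above background, or the probe's own signal where that is higher. The members and the lists were chosen with earlier results of these data known. Replicate numbers are shared by all comparisons, and deviations of same-numbered arrays correlated with r of -0.21, -0.24 (replicate 1 less 2), -0.51 and -0.44 (replicate 3 less 4) against the other comparisons, which have APP_WT as denominator. Alternatives covered scaling, background, filters, the spread, the replicate block, leaving out arrays, and SAM with rank products (100 permutations), as the methods name.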

Additional observations from a re-analysis of the deposited data

Results flagged for a closer look

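In 239 named genes and 46 list medians, 1 array stood apart from the other 3 by Dixon's ratio of gap to range in 10 cases, and chance gives about 1 in 20 groups. Replicate 2 was low for the ciliary genes Ccdc153 (1.46 against 1.93 to 2.00, ratio 0.872) and Enkur (1.02 against 1.49 to 1.52, ratio 0.944) and high for the choroid plexus channel gene Kcne2 (1.23 against 0.29 to 0.34, ratio 0.949). Replicate 3 was high for the cortical factor Tbr1 (0.71 against 0.46 to 0.49, ratio 0.912) and for the median of ion channel genes (0.10 against -0.10 to -0.08, ratio 0.889). Replicate 4 was low for the synapsin gene Syn2 (0.15 against 0.38 to 0.39, ratio 0.973) and high for the medians of NRF2 genes (0.26 against 0.11 to 0.14, ratio 0.844) and of NF-kB genes (1.39 against 0.96 to 1.00, ratio 0.897). Replicate 1 was high for the Wnt receptor ligase gene Rnf43 (1.26 against 0.06 to 0.19, ratio 0.892) and low for the median of unfolded protein response genes (-0.06 against 0.02, ratio 0.926). The adjusted limma p of Rnf43 was 0.047 and that of Kcne2 was 0.017. With the replicate block Rnf43 did not pass (limma adjusted p = 0.053).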

How the results depend on the processing

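Against 2054 lower and 3392 higher probes, processed signals gave 5148 lower and 2684 higher, median centering 3727 and 2136, the deposited log ratios 5386 and 2604, no filter on dim probes 1358 lower, the 4 arrays alone 495 and 1876 with a dye term and 282 and 1552 without, array weights 1197 lower, and SAM with rank products 1290 lower. Leaving out 1 array gave 1081 to 1744 lower and 2494 to 3806 higher. Chosen after seeing the data, the sex-matched arrays alone gave 1266 lower, and centering on expressed probes gave 2662 lower with 3676 higher for processed signals and 2944 with 3322 for median centering. The replicate block gave 1371 lower and 2799 higher, and the replicate block signed by the side of APP_WT, also chosen after seeing the data, gave 3493 lower and 4772 higher. The cause of these shifts was not tested. Of the fold changes of named genes recomputed in each setting, 2762 kept their side of the threshold, 412 no longer passed, 5 newly passed and 4 that had passed turned sign, at another expressed probe: Cntnap2 0.0601, Bcl11b 0.00782, Nefh -0.0354 and Aph1b 0.154. Some genes that had not passed also turned sign, such as App under median centering (-0.06). List medians changed sign for 16 of 46 lists under median centering, 9 under processed signals and 5 to 8 without 1 array, and those of the cholesterol, ventral, pan-neuronal, ciliary, astrocyte and lysosomal lists did not under any of these. A slide block was not run, since the 4 arrays share a slide that holds no other. Signals near background limit the dimmest genes.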
